A study of Mus musculus with 6 samples.

Results

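Classic cadherins are single-pass membrane proteins through which neighbouring cells adhere, and 10 of them that spinal neurons use were examined here in embryonic mouse spinal cord. The members were chosen by gene symbol, and all 10 were found among the 55433 genes counted and among the 17711 genes with enough counts to be tested. Whole cords were taken at E13.5 from 6 embryos of strain C57BL/6J. The 3 embryos labelled control carried the genotype NFIA-ff, and the 3 labelled NFIAcKO carried NFIA-ff with Nestin-cre. This transgene drives recombination in progenitors across the nervous system, and is not specific to motor neurons. Only the NFIAcKO embryos carried cre, so effects of the transgene and of the deletion cannot be told apart, and the labels give no litters. The study's stated interest was the part that the transcription factor NFIA plays in the development of motor neurons.

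A cadherin binds cadherins on the next cell through its outermost repeats, and its cytoplasmic tail binds catenins that lead to actin. Type I cadherins, here Cdh2 and Cdh4, tend to be expressed more broadly than type II cadherins, here the other 8. Type II cadherins are expressed in combinations that differ between neuron groups. In the ventral spinal cord, the motor neurons that supply one muscle gather into a pool, and the combination of type II cadherins, together with Cdh2 and catenins, is known to take part in that sorting.

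Promoter sequences are shown first because the study is about a DNA-binding factor. NFI proteins are known to bind the letters TTGGC, most strongly as a pair with GCCAA, the same letters on the opposite strand, 5 bases further on. RefSeq promoters of GRCm38.p6, of 300 bases each (250 before the annotated start and 50 after it), were found for 7 of the 10 members, in 9 windows. The pair was in 0 of these 9 windows and in 0.04% of all 32851 windows of that length. A single TTGGC, on either strand, was in 7 of the 9 windows and in 46.7% of all windows. Below are the 250 bases before the start of Cdh6, the cadherin with the largest difference between groups, and of Cdh20, whose window held 2 such matches, in capitals, and which did not pass the test.
Cdh6, chr15:13173676-13173925, minus strand: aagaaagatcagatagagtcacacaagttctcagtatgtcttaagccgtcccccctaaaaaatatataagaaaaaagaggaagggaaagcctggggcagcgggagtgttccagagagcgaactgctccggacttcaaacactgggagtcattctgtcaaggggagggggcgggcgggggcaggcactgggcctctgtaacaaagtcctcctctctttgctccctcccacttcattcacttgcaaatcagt
Cdh20, chr1:104768270-104768519, plus strand: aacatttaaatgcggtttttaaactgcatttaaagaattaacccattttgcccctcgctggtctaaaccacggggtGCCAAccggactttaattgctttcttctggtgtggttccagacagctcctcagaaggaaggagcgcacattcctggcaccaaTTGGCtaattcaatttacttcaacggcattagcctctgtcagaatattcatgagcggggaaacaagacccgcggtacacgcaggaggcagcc
The Cdh6 window held 0 matches to TTGGC, which says only that these letters are not in this window. Cdh7, Cdh8, Cdh9, Cdh10 and Cdh12 each had a match in at least 1 window. A match is a description of the letters, not a binding site.

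Libraries held 43393053 to 51465763 counts assigned to genes. Members had 404 to 22602 counts in a library, so none of their values lay near the limit of detection. Nfia, the targeted gene, stood at 60.1, 59.1 and 79.2 CPM (counts-per-million values) in control replicates 1, 2 and 3 and at 106, 108 and 119 CPM in NFIAcKO replicates 1, 2 and 3. It was higher in every library labelled NFIAcKO, against the label (log2 fold change 0.75, SE 0.11, edgeR adjusted p = 0.0031), and a count over the whole gene does not test the deletion. Directions below are therefore those of the labels. Spinal and motor neuron markers were present: all 9 markers of spinal neurons and progenitors and all 9 of motor neurons passed the filter on low counts. Motor neuron markers summed to 310 to 348 CPM per control library and 342 to 357 CPM per NFIAcKO library, and 1 of the 9 was higher. The markers of spinal neurons and progenitors summed to 3431 to 3752 CPM per control library and 3803 to 4405 CPM per NFIAcKO library, without overlap. Of these 9, 3 were higher (Nes, Hoxc8 and Nkx2-2), and Tubb3, the most abundant, overlapped between groups (means 2210 and 2286 CPM). Over all tested genes, 7.86% were higher in edgeR. The part of both marker lists in the cadherin values was not tested. In whole cords, a change in the number of cells of one type and a change in RNA per cell cannot be told apart.

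Cadherin levels spanned a wide range. Per kilobase of annotated exons, Cdh2 (N-cadherin, the main cadherin of neural tissue) was highest at 45.2 ± 4.72 CPM per kb in control and 57.9 ± 2.79 in NFIAcKO libraries (SD, n = 3). Cdh11, found in mesenchyme as well as in neural cells, came next at 25.5 ± 1.44 and 23.7 ± 0.483 CPM per kb. Cdh4 (R-cadherin) stood at 15.6 ± 2.18 and 18.4 ± 0.647 CPM per kb. After these came Cdh6 and Cdh8, whose 6 library values ran from 9.55 to 15.3 and from 10.1 to 12.8 CPM per kb and overlapped each other. The levels of Cdh6 also overlapped those of Cdh4. Cdh10, Cdh7, Cdh9, Cdh20 and Cdh12 lay between 2.07 and 3.67 CPM per kb in any library, and the ranges of neighbours overlapped. These levels depend on the length used, here all annotated exons of a gene. Per kilobase of the longest transcript, the means over all 6 libraries were 85.8 CPM per kb for Cdh2 (51.5 over all exons), 38.8 for Cdh11 (24.6) and 19.6 for Cdh8 (11.6), which then came before Cdh4 (19.3) and Cdh6 (13.3). The low levels then split, with Cdh10 at 8.83 (3.31 over all exons) and Cdh7 at 6.39 (3.15), apart from Cdh9, Cdh20 and Cdh12 at 2.79, 2.77 and 2.56 CPM per kb.

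**Figure D1:**
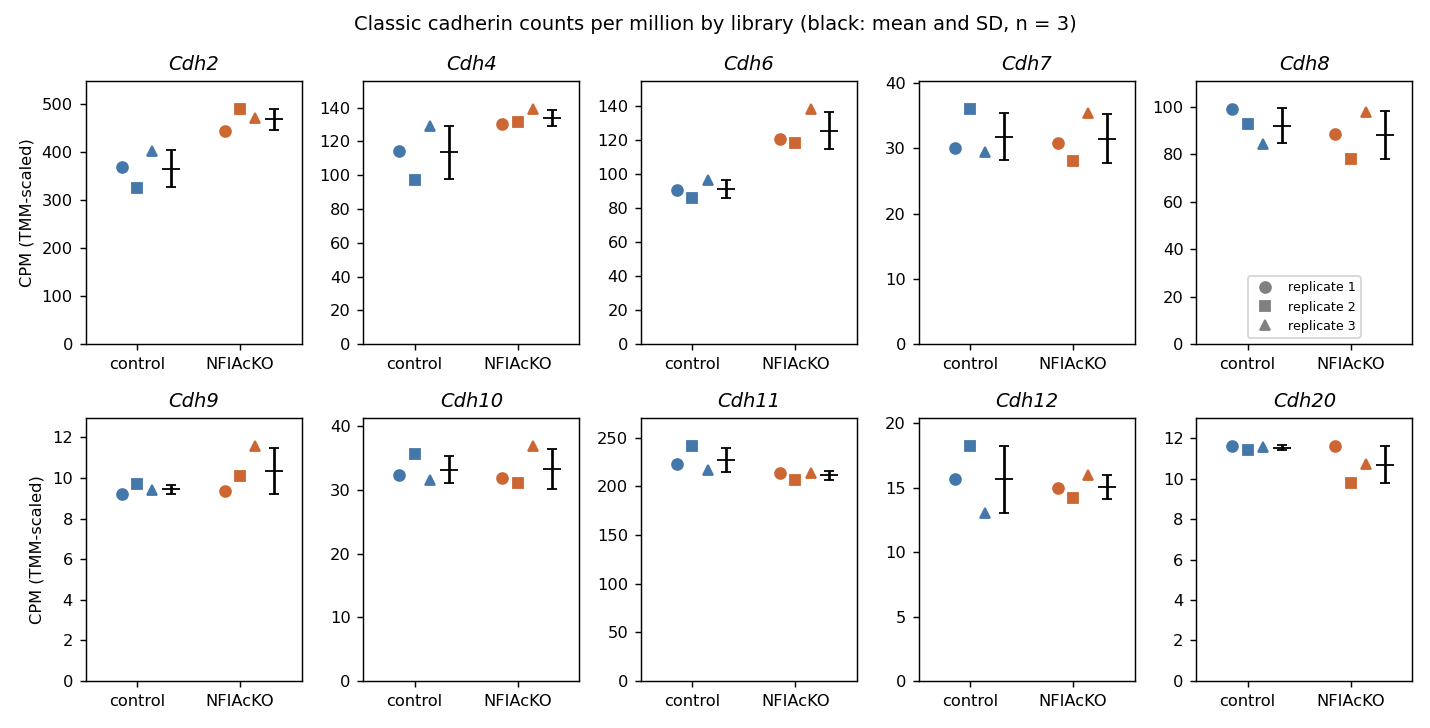
CPM (vertical axes, TMM-scaled, from 0) of each cadherin in the 3 control (blue) and 3 NFIAcKO (orange) libraries, with the mean and SD in black. Cdh2, Cdh4 and Cdh6 are higher in all 3 NFIAcKO libraries than in any control library, and Cdh11 is lower in all 3.

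Of the 10 cadherins, 2 (Cdh2 and Cdh6) were higher and none lower under the NFIAcKO label in edgeR's quasi-likelihood test at a Benjamini-Hochberg adjusted p under 0.05. Over all tested genes, 7.86% were higher and 6.08% lower (13.9% either way). With 2 of 10 called, the cadherins as a group were close to that background. At an unadjusted p under 0.05 in edgeR, 3 members were higher and 0 lower, where 15.8% of all tested genes were higher and 14% lower. DESeq2 and limma-voom each called the same 2, where they called 23.9% and 13.2% of all genes they tested. The median log2 fold change of the 10 was -0.01, as it was over all genes tested (-0.01). All 3 libraries labelled NFIAcKO lay above all 3 controls for Cdh2, Cdh4 and Cdh6 and below them for Cdh11, as they did for 17.3% (above) and 16.1% (below) of all tested genes.

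Cdh2, of type I, holds neural tissue together and is known to act through catenins in motor pool sorting. It stood at 368, 325 and 401 CPM in control replicates 1, 2 and 3 and at 443, 488 and 469 CPM in NFIAcKO replicates 1, 2 and 3. Every library labelled NFIAcKO was above every control. The mean was 365 ± 38.1 CPM in controls and 467 ± 22.5 CPM in NFIAcKO libraries (SD, n = 3), a 1.28-fold rise (log2 fold change 0.36, SE 0.09, edgeR adjusted p = 0.021). The call was lost without control replicate 1 (adjusted p = 0.083) and without NFIAcKO replicates 1, 2 and 3 (0.066, 0.085 and 0.081).

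Cdh4, the other type I member, is a close relative that can adhere to Cdh2. It was at 114, 97.4 and 129 CPM in control replicates 1, 2 and 3 and at 130, 132 and 139 CPM in NFIAcKO replicates 1, 2 and 3. The groups did not overlap, but control replicate 3 lay within 2 CPM of the lowest NFIAcKO library. The log2 fold change of 0.24 (SE 0.10) did not pass the test (edgeR adjusted p = 0.11). It passed without control replicate 3, where the log2 fold change was 0.34 (adjusted p = 0.005).

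Cdh6 (K-cadherin), a type II cadherin of neural progenitors and of some motor pools, had the largest difference of the 10. It stood at 90.9, 86.1 and 96.7 CPM in control replicates 1, 2 and 3 and at 121, 118 and 138 CPM in NFIAcKO replicates 1, 2 and 3. The lowest NFIAcKO library was well above the highest control. The mean was 91.2 ± 5.28 CPM in controls and 126 ± 10.96 CPM in NFIAcKO libraries (SD, n = 3), a 1.38-fold rise (log2 fold change 0.46, SE 0.08, edgeR adjusted p = 0.0063). This call held in each of the 17 other settings tried, with log2 fold changes of 0.38 to 0.51 and adjusted p from 1.5e-05 to 0.049, including the 6 that leave out 1 library.

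Cdh7 and Cdh20 lie on the same chromosome and are both type II cadherins of motor neuron subsets; Cdh20 is known as MN-cadherin in the chick. Cdh7 stood at 30.0, 35.97 and 29.4 CPM in control replicates 1, 2 and 3 and at 30.9, 28.0 and 35.4 CPM in NFIAcKO replicates 1, 2 and 3. The groups overlapped, and the log2 fold change was -0.02 (SE 0.11, edgeR adjusted p = 0.94). Cdh20 was at 11.6, 11.4 and 11.6 CPM in the controls and at 11.6, 9.76 and 10.7 CPM in NFIAcKO replicates 1, 2 and 3. Its controls were close together and NFIAcKO replicate 2 was the lowest library (log2 fold change -0.11, SE 0.11, edgeR adjusted p = 0.57).

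Cdh8, a type II cadherin whose expression in mouse motor neurons is known to depend on the pool factor Etv4, was at 98.9, 92.8 and 84.1 CPM in control replicates 1, 2 and 3. In NFIAcKO replicates 1, 2 and 3 it was at 88.6, 77.9 and 97.9 CPM. The groups overlapped throughout (log2 fold change -0.06, SE 0.09, edgeR adjusted p = 0.71). Etv4 itself stood at 13.6 ± 1.70 and 13.2 ± 1.80 CPM (SD, n = 3; edgeR adjusted p = 0.86).

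Cdh9 and Cdh10, type II cadherins known in phrenic motor neurons, which drive the diaphragm, did not pass the test either. Cdh9 was at 9.20, 9.69 and 9.42 CPM in the controls and at 9.36, 10.1 and 11.6 CPM in NFIAcKO replicates 1, 2 and 3 (log2 fold change 0.13, SE 0.12, edgeR adjusted p = 0.51). Cdh10 was at 32.4, 35.6 and 31.6 CPM in the controls and at 31.9, 31.1 and 36.9 CPM in NFIAcKO replicates 1, 2 and 3 (log2 fold change 0.004, SE 0.10, edgeR adjusted p = 0.98). Both groups of Cdh10 covered nearly the same range.

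Cdh12, a type II cadherin of brain and spinal neurons, stood at 15.7, 18.3 and 13.0 CPM in the controls and at 15.02, 14.2 and 16.0 CPM in NFIAcKO replicates 1, 2 and 3. Its 3 NFIAcKO libraries lay inside the range of its controls (log2 fold change -0.06, SE 0.13, edgeR adjusted p = 0.81). Gm49685, annotated as an antisense RNA, shares 3.14% of the exonic bases of Cdh12 on the same strand, and Gm49127 shares 6.33% of those of Cdh9 on the opposite strand, so part of these counts may have been assigned elsewhere.

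Cdh11 (OB-cadherin) was at 223, 242 and 217 CPM in control replicates 1, 2 and 3 and at 213, 206 and 214 CPM in NFIAcKO replicates 1, 2 and 3. The groups did not overlap, although control replicate 3 was close to NFIAcKO replicate 3, and the log2 fold change of -0.10 (SE 0.08) did not pass (edgeR adjusted p = 0.40). Mesenchymal and meningeal markers, from cells that also express Cdh11, summed to 1298 to 1678 CPM per control library and 1510 to 2072 CPM per NFIAcKO library. Of these markers, 0 of 8 were called by edgeR, where 13.9% of all tested genes were. The part of these markers in the Cdh11 values was not tested.

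**Figure D2:**
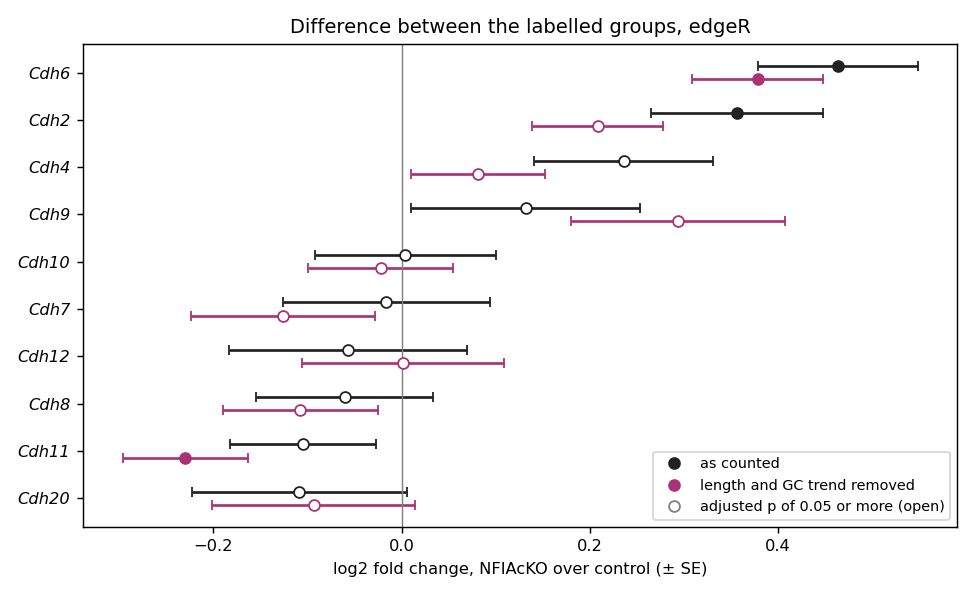
Log2 fold change of each cadherin (horizontal axis, NFIAcKO over control, with SE) as counted (black) and with the length and GC trend removed (purple); filled points have an adjusted p under 0.05. Cdh6 is filled in both fits, Cdh2 as counted only and Cdh11 only with the trend removed.

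Transcript length moved with the labelled groups across the whole transcriptome, and the cadherins are long. Over 13032 genes the log2 fold change rose by 0.13 per doubling of exonic length. The members have 3539 bp (Cdh9) to 10051 bp (Cdh10) of annotated exons, and 9 of the 10 are longer than the median tested gene (3976 bp). With a length and GC trend removed from each library, 1 of the 10 was higher (Cdh6) and 1 lower (Cdh11), where 3.83% of all tested genes were higher and 3.88% lower. The log2 fold change of Cdh6 was then 0.38 (SE 0.07, edgeR adjusted p = 0.015). That of Cdh2 was 0.21 (SE 0.07) and its call was lost (edgeR adjusted p = 0.08). That of Cdh11 was -0.23 (SE 0.07, edgeR adjusted p = 0.0499), just past the threshold, and it missed it when the replicate number was also used as a block (adjusted p = 0.056). Cdh4 stood at 0.08 (SE 0.07, edgeR adjusted p = 0.51) and Cdh9, the shortest member, at 0.29 (SE 0.11, edgeR adjusted p = 0.12).

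The share of each member in the cadherin total does not depend on library scaling, and is described here without a test. Summed over the 10 members, levels were 122.8 ± 4.61 CPM per kb in control and 139.8 ± 4.72 in NFIAcKO libraries (SD, n = 3). Cdh2 made up 37.0, 34.2 and 39.1% of that sum in control replicates 1, 2 and 3 and 40.4, 43.7 and 40.1% in NFIAcKO replicates 1, 2 and 3. Cdh6 made up 8.16, 8.09 and 8.43% in the controls and 9.84, 9.47 and 10.6% in the NFIAcKO libraries. Both shares were higher in every NFIAcKO library. The share of Cdh11 was lower in every one, at 20.8 ± 1.96% in the controls and 17.0 ± 0.579% in the NFIAcKO libraries (SD, n = 3), and so was that of Cdh20, at 2.34 ± 0.0714% and 1.91 ± 0.193%. The shares of the other 6 overlapped between groups. In CPM, the groups did not overlap for 17.3% (above) and 16.1% (below) of all tested genes. Shares are parts of a fixed whole, so a rise in some lowers others. As counted, neither Cdh11 nor Cdh20 passed the test (edgeR adjusted p = 0.40 and 0.57). The length and GC trend was not removed from the shares. Type I cadherins together held 49.4 ± 3.78% of the sum in the controls and 54.6 ± 1.94% in the NFIAcKO libraries (SD, n = 3). With 3 libraries a group, no exact permutation test of a share could give a two-sided p under 0.10, so none was run.

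**Figure D3:**
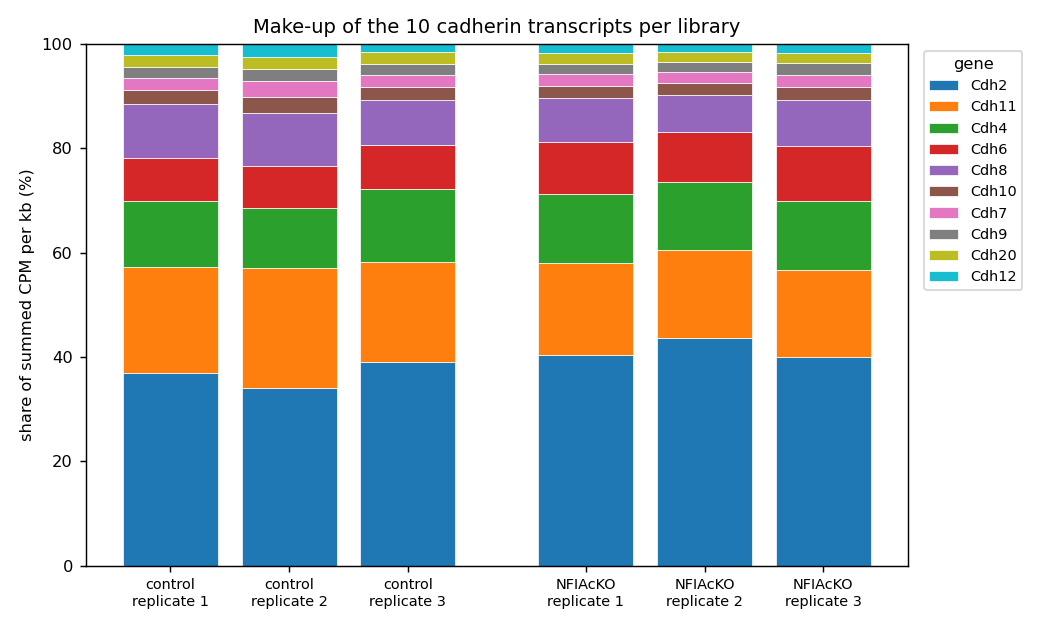
Share of each cadherin in the summed CPM per kb of the 10 members (vertical axis, percent), one bar per library. Cdh2 and Cdh11 fill the lower part of each bar; the Cdh2 share is 34.2 to 39.1% in the control bars and 40.1 to 43.7% in the NFIAcKO bars.

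The nearest gene to each cadherin by its values over the 6 libraries is given as a description, since every gene has a nearest one. Likeness was measured as the root mean square distance between the log2 CPM of a pair of genes, each centred on its mean over the 6 libraries. It can be read against the SD of the gene itself over the libraries, which is about its distance to a flat profile. Cdh7 and Cdh10 were the closest pair (0.05, with SDs of 0.15 and 0.10), both highest in control replicate 2 and NFIAcKO replicate 3, and Cdh8, Cdh9 and Cdh12 each had Cdh7 or Cdh10 as their nearest member (0.08 to 0.09). Cdh2 and Cdh4 were nearest to each other (0.08, with SDs of 0.22 and 0.19), and Cdh6 was nearest to Cdh2 (0.10, with an SD of 0.27). Cdh11 and Cdh20 were also nearest to each other, but their distance of 0.08 was no smaller than the SD of Cdh11 (0.08). Among all tested genes, those closest to Cdh6 were Peak1, Atrx and Nav3 (0.03 each), and those closest to Cdh2 were Ppp1r12a, Zbtb16 and Tanc1 (0.02, 0.02 and 0.03). All 6 were called higher by edgeR, and the measure includes the difference between groups.

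Genomic neighbours did not share their calls throughout. On chromosome 15 of GRCm38, Cdh6 (13028701 to 13173675, minus strand) lies 3.56 Mb before Cdh9 (16728756 to 16857094, plus strand). Cdh10 (18818947 to 19014236, plus strand) follows 1.96 Mb after Cdh9, and Cdh12 (20449265 to 21589533, plus strand) 1.44 Mb after Cdh10. Of these 4 neighbours, Cdh6 passed the test and the other 3 did not, which is no test of a difference between them. By their values, Cdh9 was nearest to its neighbour Cdh10, while Cdh6 was nearest to Cdh2, and Cdh10 and Cdh12 to Cdh7. On chromosome 8, Cdh8 (99024471 to 99416471) and Cdh11 (102632095 to 102785642) lie 3.22 Mb apart, both on the minus strand. On chromosome 1, Cdh20 (104768529 to 104995481) and Cdh7 (109982431 to 110140157) lie 4.99 Mb apart, both on the plus strand. Cdh4 is on chromosome 2 (179442431 to 179899373, plus strand) and Cdh2 on chromosome 18 (16588877 to 16809246, minus strand). These positions are from GENCODE M21.

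The remaining cadherins and the partners of the cadherin tail were read from lists. Of 9 further cadherins, 2 were higher, 0 lower and 7 did not pass (median log2 fold change 0.10, against -0.01 over all genes tested). Over all tested genes, 7.86% were higher and 6.08% lower in edgeR. Cdh5 (VE-cadherin, of endothelial junctions) was at 64.4 ± 10.7 CPM in controls and 94.3 ± 4.41 CPM in NFIAcKO libraries (SD, n = 3), a 1.46-fold rise (edgeR adjusted p = 0.0073). This call held with each of the 6 libraries left out in turn, and with the trend removed. Of 7 endothelial and pericyte markers 3 were higher and 2 lower, where 7.86% and 6.08% of all tested genes were. These markers summed to 412 to 457 CPM in the controls and 425 to 442 CPM in the NFIAcKO libraries. Their part in the Cdh5 value was not tested. Cdh13 (T-cadherin, which lacks the cytoplasmic tail) rose 1.19-fold (edgeR adjusted p = 0.045), a call that held in 1 of the 6 reduced fits and was lost with the trend removed (0.54). Cdh24 and Cdh22, type II cadherins, had log2 fold changes of 0.10 and 0.25 (edgeR adjusted p = 0.44 and 0.11).

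Among 10 catenins and related proteins, 2 were higher and 8 did not pass (median 0.20). The share over all tested genes, for this list and those that follow, was 7.86% higher and 6.08% lower in edgeR. Ctnnd2 (delta-catenin of neurons) rose 1.24-fold to 172 ± 6.60 CPM (SD, n = 3; edgeR adjusted p = 0.035), and Pkp4, another armadillo protein of junctions, 1.19-fold (edgeR adjusted p = 0.044). Ctnnb1, the beta-catenin that links cadherin to alpha-catenin, stood at 677 ± 35.0 and 689 ± 56.7 CPM (SD, n = 3; edgeR adjusted p = 0.88). Ctnna2, the neuronal alpha-catenin, was at 290 ± 16.6 and 321 ± 6.67 CPM (edgeR adjusted p = 0.23). Of 5 genes for nectins and afadin, an adhesion system that works alongside cadherins, 3 were higher and 2 did not pass (median 0.28). Nectin1 rose 1.32-fold (edgeR adjusted p = 0.015), Afdn (afadin) 1.31-fold (0.013) and Nectin3 1.21-fold (0.029), while Nectin2 and Nectin4 had log2 fold changes of -0.04 and 0.15 (edgeR adjusted p = 0.79 and 0.68). Of 10 genes of cadherin processing and the cytoskeleton, 2 were higher and 8 did not pass (median 0.08): Vcl (vinculin) by 1.34-fold and Rapgef1 (an activator of Rap1) by 1.22-fold (edgeR adjusted p = 0.022 and 0.035). Vcl shares 25.5% of its exonic bases with Ap3m1 on the opposite strand, Rac1 51.4% with Daglb and Ctnnb1 14.6% with Ulk4, so part of their counts is uncertain. Cdc42 and Rac1, small GTPases of the actin cortex, had log2 fold changes of -0.17 and 0.09 (edgeR adjusted p = 0.19 and 0.46). Of these 7 calls, Nectin1 kept its call with the trend removed (0.036), and none held through all 6 omissions of a library.

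Genes that set motor pool identity or the position of motor neuron cell bodies were the fifth list, and 5 of its 10 members were higher and 5 did not pass (median 0.39), where 7.86% of all tested genes were higher. With the trend removed, 3 of the 10 were higher, against 3.83% of all tested genes. Reln, the secreted protein that guides cell body position, was at 159 ± 16.8 CPM in controls and 249 ± 25.4 CPM in NFIAcKO libraries (SD, n = 3), a 1.57-fold rise (edgeR adjusted p = 0.0042, and 0.056 with the trend removed). Dab1, its intracellular adaptor, rose 1.28-fold (edgeR adjusted p = 0.023, and 0.072 with the trend removed). Foxp1 and Lhx1, factors of limb motor columns, rose 1.49-fold and 1.34-fold (edgeR adjusted p = 0.0044 and 0.027), both also with the trend removed (0.022 and 0.029). With 1 library omitted at a time, Lhx1 and Dab1 held in 1 of 6 fits, and Foxp1 and Reln in all 6. Nkx6-1, a progenitor and motor pool factor, was the other gene called (1.39-fold, edgeR adjusted p = 0.035, and 0.033 with the trend removed). Its groups overlapped, and its call held in 1 of the 6 fits with a library omitted. Pou3f1 and Etv1, factors of single pools, had log2 fold changes of 0.25 and 0.18 (edgeR adjusted p = 0.22 and 0.31). Over the 5 lists, 14 of 44 tested genes were higher and 0 lower in edgeR, where 7.86% of all tested genes were higher and 6.08% lower. At an unadjusted p under 0.05 in edgeR, 20 were higher and 3 lower, where 15.8% and 14% of all tested genes were. With the trend removed, 5 of the 44 were higher and 0 lower, where 3.83% and 3.88% of all tested genes were. The lists were chosen with earlier results of these data known, so these counts are a description and not a test of an excess.

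**Figure D4:**
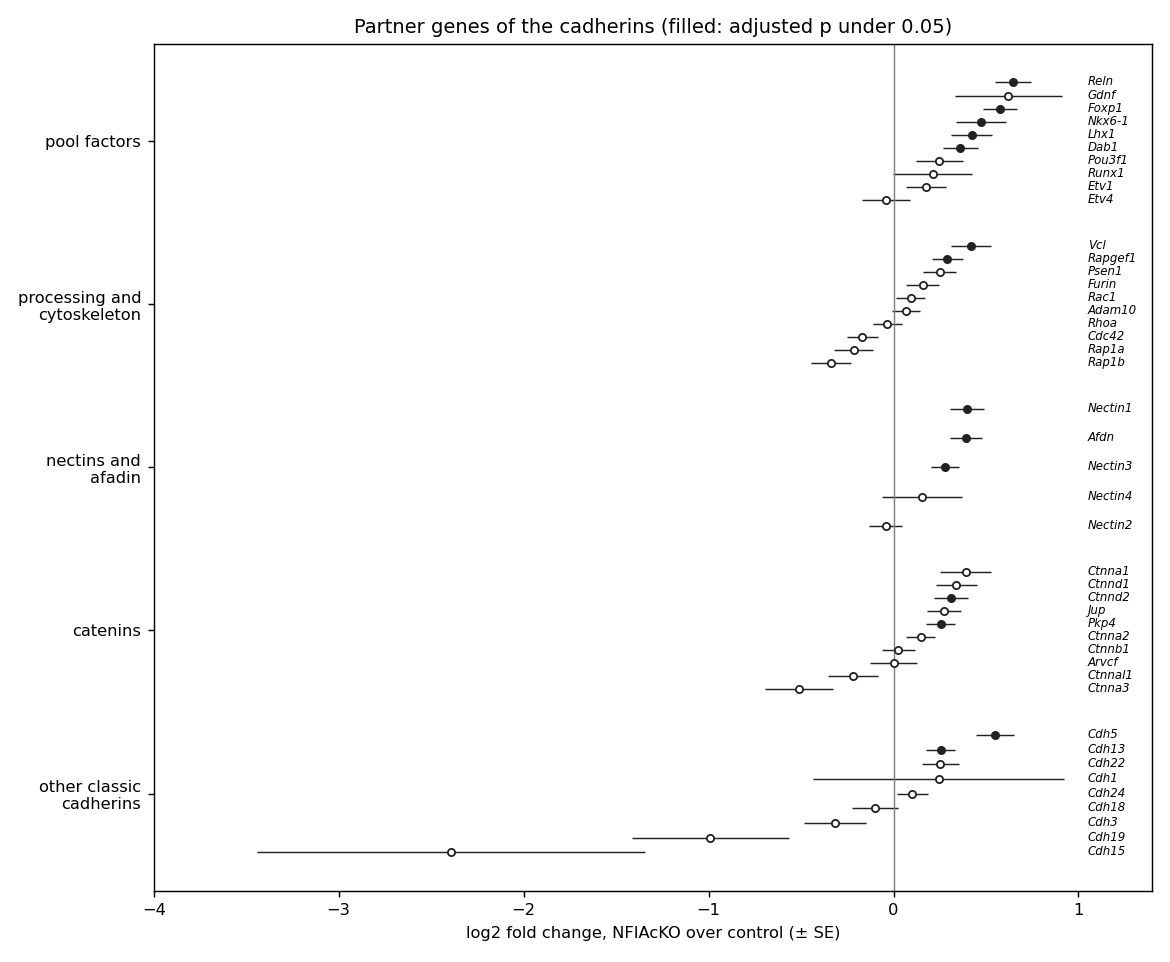
Log2 fold change (horizontal axis, NFIAcKO over control, with SE) of the 44 tested genes of the 5 partner lists, named at the right; filled points have an adjusted p under 0.05. All 14 filled points lie to the right of 0.

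The libraries came under 2 identifying numbers, one for replicates 1 and 2 of both groups and the other for replicate 3 of both. What the numbers stand for is not given in the sources. Within the 4 libraries of replicates 1 and 2, edgeR gave log2 fold changes of 0.44 for Cdh6, 0.43 for Cdh2 and 0.31 for Cdh4 (adjusted p = 0.00014, 0.00043 and 0.0086). These were the 3 of 10 cadherins that passed in that fit, where 29.3% of all tested genes passed. Within the replicate 3 pair, which allows no test, the log2 differences of Cdh6, Cdh2 and Cdh4 were 0.52, 0.23 and 0.11. These 3 genes thus had the same direction under both numbers, as did Cdh9 (0.04 and 0.30), Cdh11 and Cdh20. Cdh11 was at -0.14 in the first and -0.02 in the second, and Cdh20 at -0.11 in both. Cdh7, Cdh8, Cdh10 and Cdh12 were below 0 in the first (-0.16, -0.20, -0.11 and -0.22) and above 0 in the second (0.27, 0.22, 0.22 and 0.29). The share of all tested genes that change direction between the 2 numbers was not counted.

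**Figure D5:**
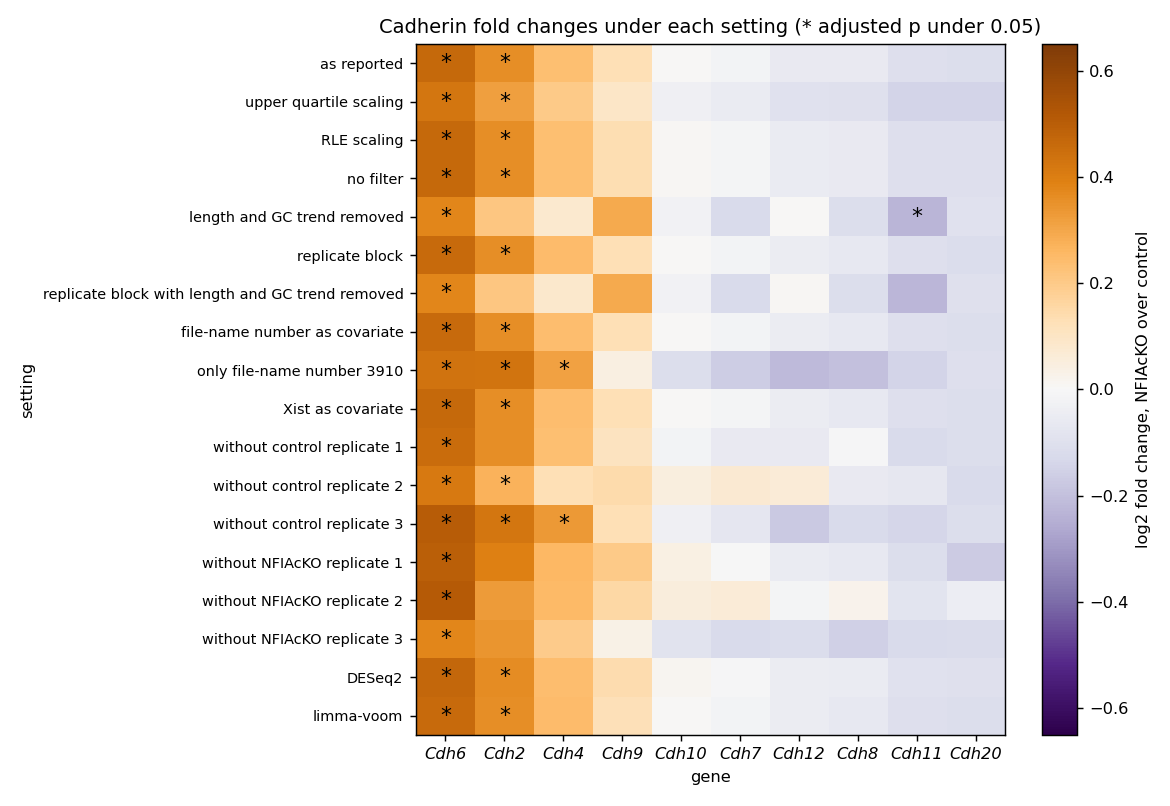
Log2 fold change (colour, NFIAcKO over control) of each cadherin (columns) under the reported fit and 17 other settings (rows); stars mark an adjusted p under 0.05. Cdh6 has a star in every row, Cdh2 in 12 of 18, Cdh4 in 2 and Cdh11 in 1.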

How the data were processed

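Per the labels' protocols, RNA of the 6 cords was extracted with an RNeasy kit and sequenced from stranded mRNA libraries. Tools named in the submitters' processing notes, with no role given, are STAR 2.6.1a, HTSeq and DESeq2, and the build is mm10. Which annotation was used, and whether counting was by strand, is not stated there. The deposited values are raw counts per gene symbol, 1 file per library. Summary lines of reads assigned to no single gene (16.9 to 19.4% of a file's total) were left out. Libraries of a group differed beyond sampling noise (chi-square per degree of freedom 11.2 to 49.7).

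Groups were compared across all genes in edgeR 4.0.16 (R 4.3.3): filterByExpr, TMM scaling, robust quasi-likelihood F test, Benjamini-Hochberg adjusted p under 0.05. The SE is derived from F, as the size of the log2 fold change divided by its square root. CPM use TMM-scaled library sizes. A count of 0 would allow 3 counts, 0.057 to 0.0683 CPM, for counting error only. The trend with exonic length and GC content (GENCODE M21, GRCm38, the assembly of mm10; 98.8% of tested genes matched) was removed with splines (natural, 5 degrees of freedom) fitted to genes with a mean log2 CPM over 1, as offsets. DESeq2 1.42.0 and limma-voom (limma 3.58.1), scaling, filter, blocks and each library left out were alternatives. The edgeR script was tested on simulated data. Members and lists were chosen with earlier results of these data known. Named genes were all members, up to 4 called genes of each partner list by smallest p and up to 2 not called with the highest mean CPM, and the nearest genes by distance. Nkx6-1 was called but fell outside that rule. Etv4 was named for its known relation to Cdh8, after its values were seen.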

Additional observations from a re-analysis of the deposited data

Results flagged for a closer look

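Cdh8, Cdh10 and Cdh12 went in opposite directions in 2 subsets of the libraries that their file names tell apart. In the 4 libraries of replicates 1 and 2, both NFIAcKO libraries lay below both controls, with log2 fold changes of -0.20, -0.11 and -0.22. In the 2 libraries of replicate 3, 1 per group, the NFIAcKO library lay above the control, with log2 differences of 0.22, 0.22 and 0.29. The difference between the subsets was not tested, and the share of all tested genes that reverse in this way was not counted. The 3 cadherins are thus not shown to differ from other genes in this. None of the 3 passed the test within replicates 1 and 2 (edgeR adjusted p = 0.085, 0.48 and 0.22).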

How the results depend on the processing

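Over 17 other settings, 148 of 170 cadherin fold changes kept their direction and their side of the threshold. Cdh6 kept its call in all 17 and Cdh2 in 11. The number of cadherins called, 2 as reported, ranged from 1 to 3 when a library was left out, and was 1 with the replicate block together with removal of the length and GC trend. The number of all genes called, 2468 as reported, was 451 to 5169 when a library was left out (451 without NFIAcKO replicate 1, 5169 without control replicate 3), 1366 with the trend removed, 1505 with the trend removed and the replicate block, and 5244 in the 4 libraries of replicates 1 and 2, which share a file-name number. The 14 partner genes called became 3 to 25 when a library was left out, 5 with the trend removed, 4 with the replicate block as well, and 26 within replicates 1 and 2. Of all tested genes, 13.9% were called as reported and 2.48 to 28.4% when a library was left out. That share was 7.71% with the trend removed, 8.5% with the replicate block as well, and 29.3% within replicates 1 and 2. The replicate block alone moved no call of a cadherin (Cdh6 0.46, Cdh2 0.36). Upper quartile scaling gave 1057 genes higher and 1434 lower, against 1392 and 1076 as reported.

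Values that changed sign belonged to 4 cadherins, none called, at most 0.109 in size. Cdh10 was at -0.0337 with upper quartile scaling, -0.0223 with the trend removed, -0.0218 with the replicate block as well and -0.11 within replicates 1 and 2, and between -0.0877 and 0.055 when a library was left out. Cdh12 was at 0.0014 with the trend removed and 0.00802 with the replicate block as well, and -0.176 to 0.0618 when a library was left out. Cdh7 ranged from -0.122 to 0.0754 and Cdh8 from -0.153 to 0.0242 over those fits. The cause was not tested. Libraries with the same replicate number correlated at 0.0875 to 0.12 in their deviations from the group means, each best with its own number. Other pairs were at -0.0894 to -0.0369, but deviations within a group sum to 0, so these are not an independent contrast. The pairing is a hint from the data and not the design. Xist stood at 335 and 201 CPM in replicate 2 of control and NFIAcKO, and at 0 to 0.0635 CPM in all other libraries. With Xist as a covariate, Cdh2 and Cdh6 were again the cadherins called. The cadherins had at least 404 counts in every library and SEs of 0.08 (Cdh11) to 0.13 (Cdh12); among the largest SEs were those of the members with the fewest counts (Cdh9 0.12, Cdh20 0.11).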
